A study of Mus musculus with 8 samples.

Results

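Activator protein 1 (AP-1) and the basic leucine zipper (bZIP) factors related to it were followed through 8 libraries of activated muscle stem cells (ASCs). The members were the genes Fos, Fosb, Fosl1, Fosl2, Jun, Junb, Jund, Atf3, Maff and Mafk, chosen by symbol, and all 10 were found among the 18877 symbols of the deposited table of normalized read counts. The libraries came from 2 groups of mice, 4 wild-type and 4 mfn2-/-, the second with Mfn2, which encodes a fusion protein of the outer mitochondrial membrane, as the target of Cre. Both groups carried Pax7-CreERT2, which acts in the Pax7-expressing stem cells of muscle, and a mito-Dendra2 allele that gives recombined cells and their progeny a fluorescent mitochondrial protein. The mfn2-/- animals carried in addition a conditional allele of Mfn2. All mice received tamoxifen intraperitoneally at 75 mg/kg on 5 successive days, and 2 days after the last dose the tibialis anterior was injured with 50 uL of 1.2% BaCl2. After a further 2 days the muscle was digested with Collagenase II and Dispase for 30 minutes at 37 C, and viable CD34-, Dendra2+ cells were sorted for a low-input total RNA library. Age, and whether each library came from a separate animal, were not given in the sources used here, so p-values measure the spread between these libraries, which may be technical. The gene was removed only where the Cre had acted, and a count per gene does not separate a transcript of the recombined allele from an intact one.

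AP-1 is a dimer of bZIP proteins. The basic region of each partner contacts DNA and the zipper holds the pair together. Jun proteins pair with each other or with Fos proteins, whereas Fos proteins need a Jun partner, and the makeup of the dimer sets its activity. Most of these genes are immediate early genes, transcribed within minutes of a growth signal, stress or tissue handling without new protein synthesis, and their transcripts are short-lived. Atf3 is a stress-inducible bZIP protein that often represses as a homodimer. Maff and Mafk are small Maf proteins, which have no activation domain of their own and pair with cap'n'collar partners such as Nrf2 (Nfe2l2) or with Bach1 at Maf recognition elements. In muscle stem cells Fos and Jun transcripts rise early after injury.

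The promoter windows of the members are shown first, since shared sequence is a property that the choice of members by symbol did not use. RefSeq (GRCm38.p6) gave promoter entries for 9 members, and none was used for Fosl1. The 150 bases before the start site are printed 5′ to 3′ on the gene's strand for the most abundant members (Fos, Jun), for those that were higher in mfn2-/- ASCs and had an entry (Fosl2, Mafk), and for the members with the largest differences between sets of libraries (Fosb, Maff). Capitals mark matches on either strand to TGACG, the short form of the cyclic AMP response element (CRE), or to TGANNTCA. The second is a looser 8-base pattern that is only CRE-like. The short form lies within the 8-base pattern where that reads TGACGTCA.
Fos chr12:85473740-85473889 (+): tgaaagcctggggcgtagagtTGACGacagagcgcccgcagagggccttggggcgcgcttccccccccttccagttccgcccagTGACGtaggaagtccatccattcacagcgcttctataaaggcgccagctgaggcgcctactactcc
Jun chr4:95052223-95052372 (-): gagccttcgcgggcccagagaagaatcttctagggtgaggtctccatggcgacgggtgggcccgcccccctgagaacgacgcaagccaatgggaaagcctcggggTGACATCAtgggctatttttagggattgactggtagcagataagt
Fosb chr7:19310046-19310195 (-): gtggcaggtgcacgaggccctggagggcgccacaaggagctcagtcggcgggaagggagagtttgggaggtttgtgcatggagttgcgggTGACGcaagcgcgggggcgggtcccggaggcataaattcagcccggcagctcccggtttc
Fosl2 chr5:32136322-32136471 (+): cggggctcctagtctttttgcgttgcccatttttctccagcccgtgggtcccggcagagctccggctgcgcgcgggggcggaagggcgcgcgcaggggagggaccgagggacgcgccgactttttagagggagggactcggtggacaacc
Maff chr15:79347370-79347519 (+): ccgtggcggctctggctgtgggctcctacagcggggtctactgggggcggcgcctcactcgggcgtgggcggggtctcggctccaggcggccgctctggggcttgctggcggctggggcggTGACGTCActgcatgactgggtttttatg
Mafk chr5:139791386-139791535 (+): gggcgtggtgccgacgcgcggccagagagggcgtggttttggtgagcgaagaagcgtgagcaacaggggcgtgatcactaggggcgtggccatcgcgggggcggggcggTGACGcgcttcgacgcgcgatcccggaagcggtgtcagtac

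Over the 250 bases before each start, TGACG was found in 6 of the 9 members with an entry, Fos, Fosb, Junb, Atf3, Maff and Mafk, and in 17.8% of all 32851 promoter entries. Fos held it 129 and 66 bases before its start, Mafk 41 and Fosb 60. TGANNTCA was found in 3 members, Jun, Jund and Maff, and in 11.9% of all entries, and in Jun it read TGACATCA, 45 bases before the start. Maff has 3 entries, of which the second, printed above, held the palindrome TGACGTCA 29 bases before its start. Fosl2 held neither pattern. The AP-1 site was searched only as TGANTCA, which was in the window of 0 members and in 6.75% of all entries. The CArG box bound by serum response factor was in 0 members and in 1.47%. A kappa B site was found in 4 members, Fos, Fosb, Fosl2 and Maff, and in 3.9% of all entries. In Maff it was only in an entry not printed above. Members were counted with a match in any of their entries, whereas the shares are per entry. TATAAA was found in Fos alone among the members, 33 bases before the start, and in 12.4% of entries. These are matches of letters within short windows, and sequence outside the windows was not searched.

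The libraries held 1880464 to 7508215 reads, and every member was above 3 reads in all of them. Mfn2, the targeted gene, stood at 243, 245, 202 and 228 in wild-type replicates 1 to 4 and at 104, 118, 172 and 110 normalized reads in replicates 1 to 4 of the mutant. Its groups did not overlap (log2 change -0.88, exact permutation p = 0.0286, two-sided, the smallest p that 4 against 4 libraries allow), while the adjusted p over all genes was 0.0848 by limma, above the threshold of 0.05. Libraries of each group fell into 2 sets by Y-linked reads (Uty, Kdm5d, Ddx3y and Eif2s3y). Such reads numbered 807 to 2336 in replicates 3 and 4 of the wild-type and in replicates 1 and 2 of the mutant, and 0 in the other 4 libraries. Markers of other cells differed between the groups. The summed normalized count of 7 fibroadipogenic progenitor markers was 171900 to 238700 in wild-type and 1024 to 3036 in mfn2-/- libraries, and that of 6 tenocyte markers 36190 to 57510 against 304 to 399. Pdgfra, which defines fibroadipogenic progenitors, ranged from 1919 to 3475 in wild-type libraries and from 0 to 64.9 in mfn2-/- libraries. Of the 7 fibroadipogenic markers only Ly6a was not lower, at 0 to 27.0 in wild-type and 14.7 to 51.6 in mfn2-/- libraries. The 8 muscle stem cell markers summed to 7647 to 11160 against 21420 to 30060, with Pax7 at 582 to 804 in all 8 libraries. Sdc4 made up most of the mutant sum, at 2908 to 5871 in wild-type and 14830 to 23210 in mfn2-/- libraries. Myod1 (104 to 225 against 683 to 918) and Vcam1 (1229 to 1578 against 2836 to 3517) were also higher without overlap. Itga7 was at 607 to 1988 and 497 to 727 and Myf5 at 182 to 225 and 176 to 258. These 2 overlapped between the groups, as did Pax7, Cdh15 and Megf10. Macrophage markers summed to 157 or less in every library. In bulk RNA, fewer cells of a type and less RNA per cell cannot be told apart. The part of these marker differences in the changes described next was not tested. An alternative chosen after seeing the data took out fibroadipogenic, tenocyte and collagen genes and made totals equal. Fosl1, Fosl2 and Mafk were then called as before and Fos was called too (log2 change -0.88, limma adjusted p 0.0432). This alternative changes the scaling only and cannot remove member reads that came from cells with those markers.

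Against wild-type, mfn2-/- ASCs had more Fosl1, Fosl2 and Mafk transcript, by 4.32-fold, 2.19-fold and 2.05-fold as ratios of group mean counts. Fos measured 1.67-fold lower by the same ratio without passing the test, although its groups did not overlap. The other Jun and Fos genes, Atf3 and Maff had overlapping values. The log2 changes are another measure, differences of mean log2(normalized count + 1), mfn2-/- minus wild-type, which understate the change of weak genes. They were tested with limma on all 8 libraries and adjusted over 11754 genes. By that test 3 of 10 members were called higher, where 3.99% of all genes were called higher, 6.36% lower and 10.4% either way. By limma 0 members were called lower, with 1 at an unadjusted p under 0.05, Fos, while edgeR called 0 and DESeq2 called Fos lower, and 7 members were not called. All members but Fosl1 had a mean of at least 1000 normalized reads. Of these 9, 2 were called higher (Fosl2 and Mafk), and of all 653 genes with such a mean 25.4% were, so the share among the abundant members was near that of genes of like abundance. The median change was 0.54 over the members and -0.16 over all genes, and 8 of 10 members had a positive value. The groups did not overlap for 4 members, 3 higher and 1 lower, where the shares over all genes were 7.36% and 12.2%.

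Levels were compared between genes per kilobase of exon. In wild-type ASCs the order was Fos (8386 ± 1111 normalized reads per kilobase, SD, n = 4), Jun (7150 ± 503), Junb (2750 ± 562), Jund (1933 ± 728), Atf3 (1684 ± 537), Fosb (790 ± 422), Mafk (695 ± 281), Maff (583 ± 282), Fosl2 (234 ± 105) and Fosl1 (50.3 ± 40.4). The ranges of the libraries did not overlap between Jun and Junb, between Atf3 and Fosb or between Fosl2 and Fosl1. All other neighbours in this order had overlapping ranges, with Maff and Fosl2 meeting only at 327 and 333. Fos ranked 6th and Jun 7th of 16304 genes with a length. In mfn2-/- ASCs Jun led at 6029 ± 1274 and Fos followed at 5021 ± 1827, ranks 13 and 16, and their ranges overlapped. Mafk, at 1427 ± 294 per kilobase, stood above Fosb (1123 ± 366) in the mutant, with overlapping ranges. Fosl1 remained the lowest member at 217 ± 80.9, with its rank among all genes moving from 2646 to 539.

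**Figure D1:**
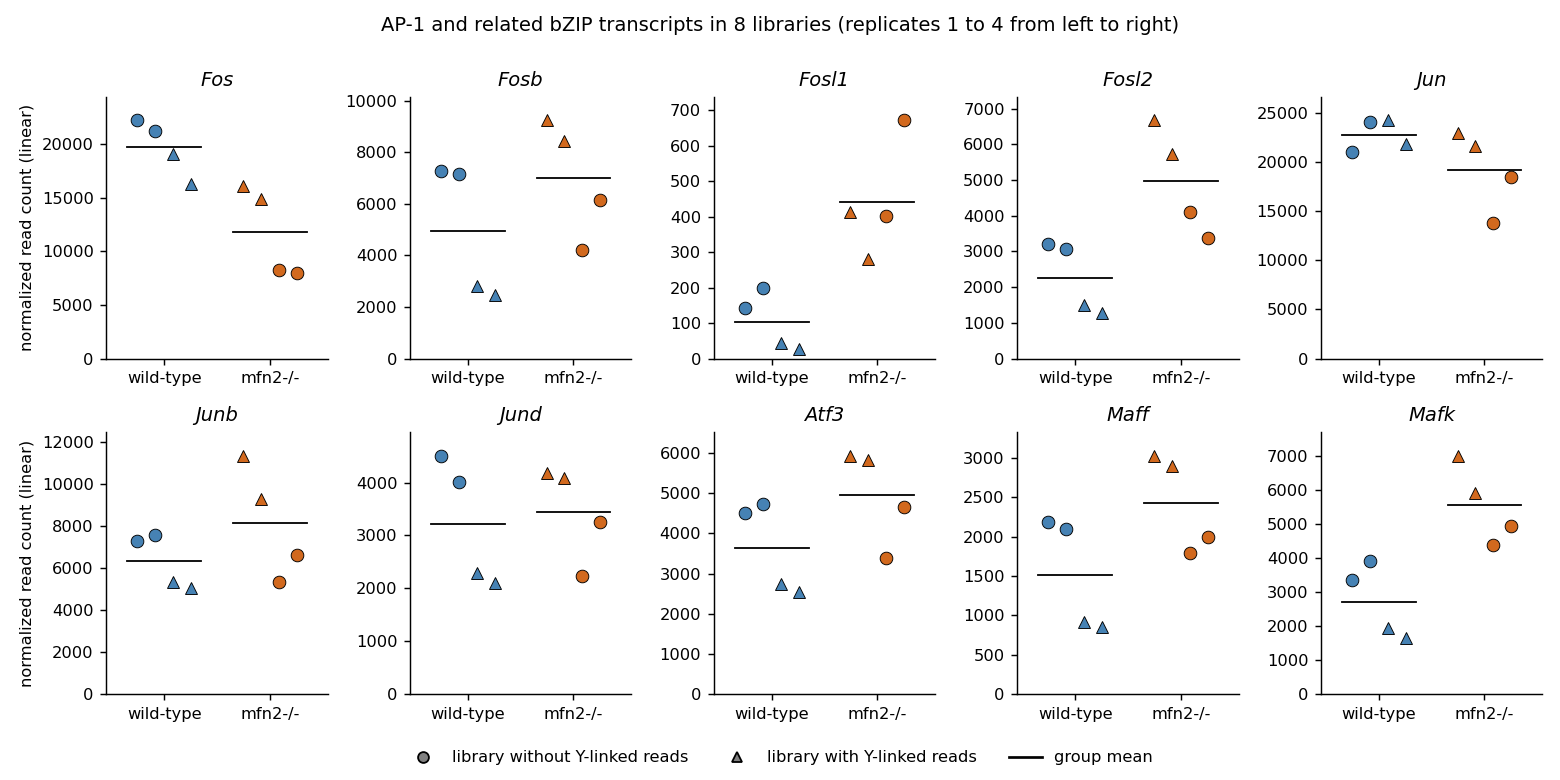
Normalized read count (linear axis from 0) of each member in the 8 libraries, replicates 1 to 4 from left to right in each group, with triangles for libraries with Y-linked reads and lines for group means. Fosl1, Fosl2 and Mafk have all 4 mfn2-/- points above all wild-type points and Fos all 4 below, and in most panels replicates 1 and 2 sit above 3 and 4 in both groups.

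Among the Fos genes, Fos itself, the prototype immediate early gene (chromosome 12, 85473890 to 85477273, plus strand, GENCODE M21 on GRCm38), measured 22224, 21227, 19131 and 16316 normalized reads in wild-type replicates 1 to 4 and 16125, 14879, 8241 and 7988 in mfn2-/- replicates 1 to 4. The highest mutant library lay just under the lowest wild-type library, and mfn2-/- replicates 3 and 4 stood well below the other 6. The difference was -0.81 on the log2 scale (limma adjusted p 0.0813, SE 0.27). It passed the threshold in 6 alternatives, among them DESeq2 on recovered reads (adjusted p 0.0267) and the fit without mfn2-/- replicate 1 (0.0486). Fosl1, which encodes Fra-1, an AP-1 subunit without the strong activation domain of Fos (chromosome 19, 5447547 to 5455946, plus strand), gave 141, 199, 42.5 and 26.2 in wild-type libraries and 414, 280, 401 and 671 in mfn2-/- libraries. Every mutant library was above every wild-type library, and wild-type replicates 3 and 4 were the lowest. Fosl1 rose by 2.47 on the log2 scale (limma adjusted p 0.0139, SE 0.56), the largest change of the 10. Its call held without each single library in turn and was lost with no intensity trend in the variance (adjusted p 0.0826).

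Fosl2, which encodes the related Fra-2 (chromosome 5, 32135801 to 32157842, plus strand), measured 3220, 3073, 1500 and 1278 in wild-type and 6669, 5725, 4091 and 3364 in mfn2-/- replicates 1 to 4. The lowest mutant library was 3364 and the highest wild-type library 3220, so the groups parted by little. Fosl2 rose by 1.20 on the log2 scale (limma adjusted p 0.0300, SE 0.32). The call was lost, at limma adjusted p 0.0772 to 0.0960, when wild-type replicate 3, wild-type replicate 4, mfn2-/- replicate 1 or mfn2-/- replicate 2 was left out. Fosb, whose short splice form is the long-lived DeltaFosB (chromosome 7, 19302696 to 19310051, minus strand), gave 7268, 7143, 2831 and 2475 in wild-type and 9236, 8444, 4195 and 6163 in mfn2-/- libraries. Both of the first wild-type replicates exceeded mutant replicates 3 and 4, and the groups overlapped (log2 change 0.62, SE 0.37, limma adjusted p 0.332). Counts per gene do not separate the 2 forms of Fosb.

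The Jun genes had smaller differences and none was called. Jun, the main partner of Fos and a target of JNK kinases (chromosome 4, 95049034 to 95052222, minus strand), was the most even member across wild-type libraries at 21055, 24085, 24239 and 21820, and gave 22962, 21636, 13826 and 18484 in mfn2-/- libraries. Replicates 3 and 4 of the mutant were the lowest of the 8 and the others overlapped (log2 change -0.27, SE 0.24, limma adjusted p 0.521). Junb, a weaker activator that can oppose Jun (chromosome 8, 84974484 to 84978718, minus strand), gave 7275, 7600, 5363 and 5073 in wild-type and 11361, 9281, 5351 and 6612 in mfn2-/- libraries. Mutant replicates 1 and 2 were the highest of the 8, and mutant replicate 3 lay among the low wild-type libraries (log2 change 0.33, SE 0.25, limma adjusted p 0.464). Jund, the most constitutive Jun gene (chromosome 8, 70698949 to 70700616, plus strand), gave 4508, 4011, 2285 and 2094 in wild-type and 4190, 4088, 2237 and 3260 in mfn2-/- libraries. Its groups covered nearly the same range (log2 change 0.13, SE 0.28, limma adjusted p 0.813), and its sign turned without wild-type replicate 3 (-0.01) or wild-type replicate 4 (-0.05).

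Of the stress factor and the small Mafs, only Mafk passed. Mafk (chromosome 5, 139791513 to 139802653, plus strand) measured 3359, 3908, 1935 and 1637 in wild-type and 7003, 5919, 4394 and 4946 in mfn2-/- libraries. All 4 mutant libraries were above all wild-type libraries. Mafk rose by 1.11 on the log2 scale (limma adjusted p 0.0214, SE 0.28), and the call was lost without the same 4 libraries as for Fosl2, at limma adjusted p 0.0553 to 0.0756. Its paralog Maff (chromosome 15, 79346621 to 79359076, plus strand) gave 2188, 2102, 913 and 849 in wild-type and 3030, 2904, 1799 and 1999 in mfn2-/- libraries. Wild-type replicates 1 and 2 lay above mutant replicates 3 and 4, and the log2 change of 0.79 (limma adjusted p 0.144, SE 0.32) was not called. Atf3 (chromosome 1, 191170296 to 191218039, minus strand) gave 4505, 4741, 2729 and 2532 in wild-type and 5933, 5831, 3387 and 4669 in mfn2-/- libraries. Wild-type replicates 1 and 2 lay above mutant replicate 3, and the groups overlapped (log2 change 0.47, SE 0.26, limma adjusted p 0.281).

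Within single libraries the balance among the Fos genes differed between the groups. Ratios inside a library do not depend on how libraries were scaled. Fos made up 85.8%, 85.3%, 92.8% and 92.8% of Fos family transcript per kilobase in wild-type replicates 1 to 4 and 74.3%, 75.2%, 73.1% and 67.1% in mfn2-/- replicates 1 to 4. The groups did not overlap, and the mean share was 89.2% ± 4.20 in wild-type and 72.4% ± 3.66 in the mutant (SD, n = 4). Fosb made up 7.96% ± 3.15 and 16.4% ± 2.28, Fosl2 2.39% ± 0.718 and 7.54% ± 0.882, and Fosl1 0.491% ± 0.353 and 3.62% ± 2.20, each with all mutant libraries above all wild-type libraries. The family sum per kilobase overlapped between the groups, at 9460 ± 1643 in wild-type and 6873 ± 2273 in mfn2-/- libraries.

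The same balance as log2 ratios of counts gave Fosl1 over Fos as -7.29, -6.73, -8.78 and -9.23 in wild-type and -5.28, -5.73, -4.36 and -3.57 in mfn2-/- libraries, a mean difference of 3.27. Fosl2 over Fos was -2.79, -2.79, -3.67 and -3.67 in wild-type and -1.27, -1.38, -1.01 and -1.25 in the mutant, a difference of 2.00. For both ratios the separation of the groups, in either set of libraries, follows from the counts. Fosl1 and Fosl2 were higher, and Fos lower, in every mutant library than in every wild-type library. Fosb over Fos differed by 1.42 and Junb over Jun by 0.60, again without overlap. Among the Jun genes per kilobase, Jun made up 60.9% ± 7.06 and 52.3% ± 2.58 and Junb 23.1% ± 2.41 and 30.1% ± 2.80, and only for Junb did the groups stay apart. Mafk over Maff overlapped between the groups (0.89 ± 0.19 and 1.21 ± 0.13). The shares and ratios were examined with the changes above known, were given no test and were not compared with those of other genes. The 10 members together took 1.62% ± 0.231 of all normalized reads in the wild-type group and 1.69% ± 0.403 in the mutant group (SD, n = 4).

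**Figure D2:**
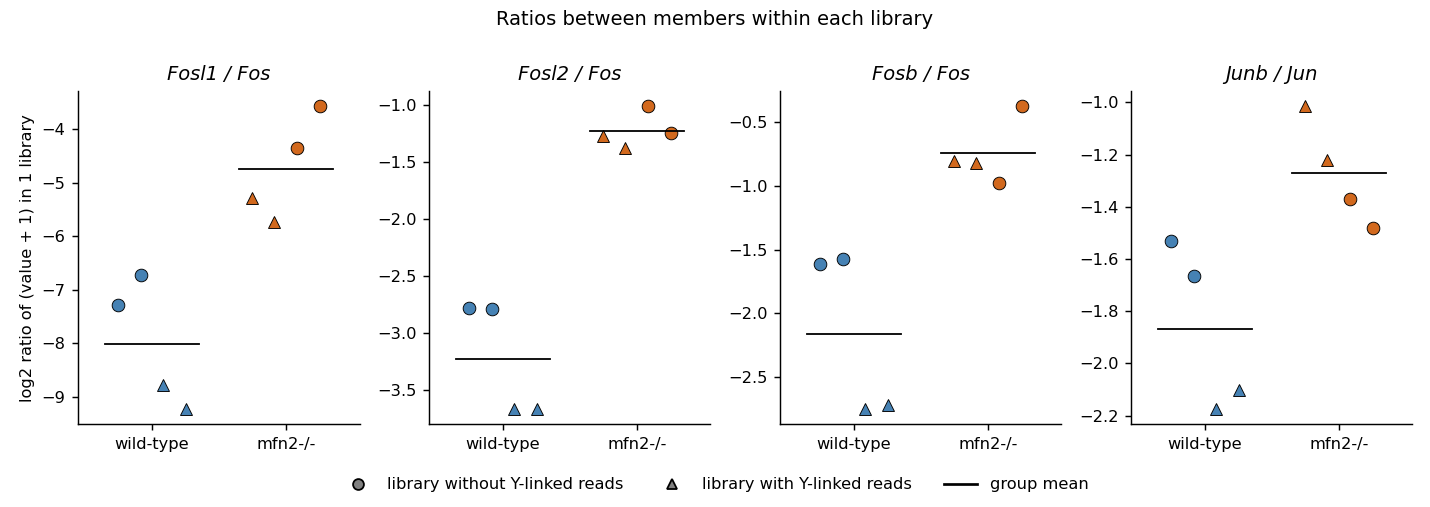
Log2 ratio of normalized counts (each + 1) of pairs of members within each library, for wild-type and mfn2-/- replicates 1 to 4 from left to right, with triangles for libraries with Y-linked reads and lines for group means. All 4 mutant points lie above all wild-type points in each panel, with mean differences of 3.27, 2.00, 1.42 and 0.60.

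The genotype change of most members was not the same in the 2 sets of libraries. In the set with Y-linked reads (replicates 3 and 4 of the wild-type, 1 and 2 of the mutant) the log2 change was 1.74 for Fosb, 0.98 for Junb, 0.92 for Jund, 1.16 for Atf3 and 1.75 for Maff. In the set without such reads (replicates 1 and 2 of the wild-type, 3 and 4 of the mutant) it was -0.50, -0.32, -0.65, -0.22 and -0.18, so these 5 members changed sign between the sets. Fos measured -0.19 in the first set and -1.42 in the second, and Jun -0.05 and -0.49. The 3 called members were positive in both, with 3.31 and 1.62 for Fosl1, 2.16 and 0.24 for Fosl2, and 1.85 and 0.36 for Mafk. Over the 10 members the median was 1.45 in the first set and -0.27 in the second, while over all genes tested both medians were -0.16.

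**Figure D3:**
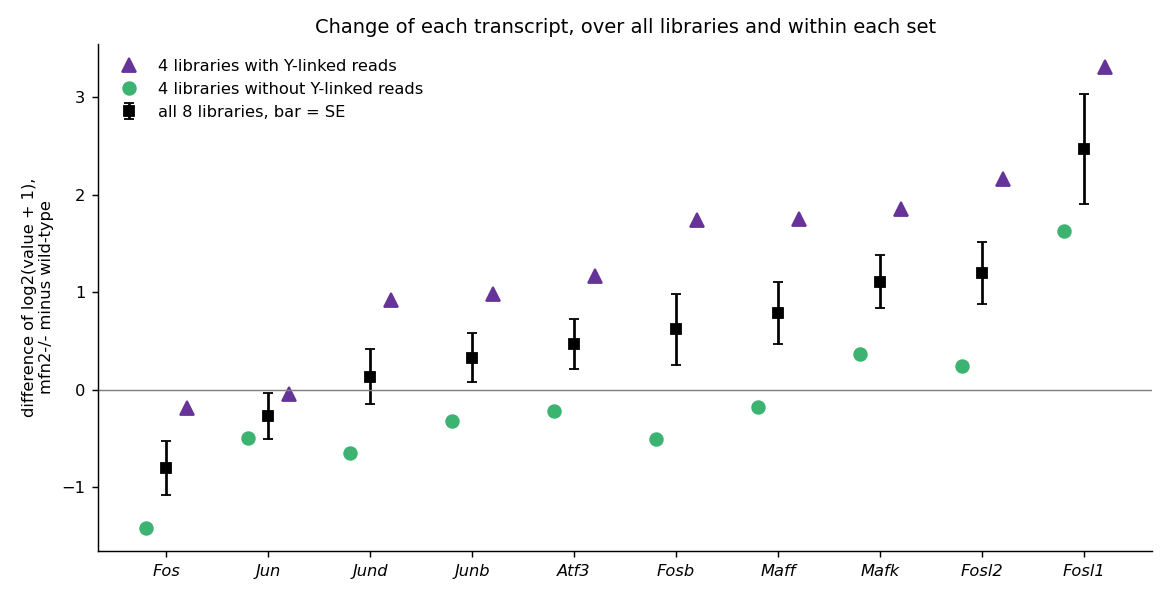
Difference of log2(normalized count + 1), mfn2-/- minus wild-type, of each member over all 8 libraries (squares, bars are the limma SE) and within the 4 libraries with (triangles) and the 4 without (circles) Y-linked reads. Every member has its triangle above its circle, and 5 members have them on opposite sides of 0.

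The difference between the sets was tested as an interaction in limma, adjusted over all genes. It was called for 8 of 10 members, each with the larger change in the set with Y-linked reads, where 1.47% of all genes were called either way and 1.21% in that direction. Among the 653 genes with a mean of at least 1000, which hold all members but Fosl1, the share in that direction was 17.3%. The differences were 2.24 for Fosb (SE 0.24, adjusted p 0.00171), 1.93 for Maff (0.20, 0.00163), 1.92 for Fosl2 (0.21, 0.00215), 1.57 for Jund, 1.49 for Mafk, 1.38 for Atf3, 1.30 for Junb and 1.23 for Fos, with limma adjusted p of at most 0.0136. Fosl1 (1.69, SE 0.64, adjusted p 0.322) and Jun (0.45, SE 0.20, adjusted p 0.404) were not called. The count stayed at 8 with edgeR on recovered reads and without both shallowest libraries, and was 4 without wild-type replicate 1, 2 or 4 or without mfn2-/- replicate 1, and 5 without wild-type replicate 3.

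This interaction has a second reading that the design cannot separate. Because Y-linked reads were in replicates 3 and 4 of one group and 1 and 2 of the other, a larger change in the set with Y-linked reads is by arithmetic the same quantity as a higher level in replicates 1 and 2 than in 3 and 4, added over the groups, and the 2 cannot be told apart. In those terms, replicates 1 and 2 both lay above replicates 3 and 4 in either group for 8 members, where 6.14% of all genes and 24% of the genes with a mean of at least 1000 did so, and 0 members lay below in both groups, where 4.33% of all genes did. Fosb was 2.72 times as high in wild-type replicates 1 and 2 as in 3 and 4, and 1.71 times in mfn2-/- libraries. Maff gave 2.43 and 1.56, Fosl2 2.27 and 1.66, Mafk 2.03 and 1.38, Jund 1.95 and 1.51, Atf3 1.76 and 1.46, Junb 1.43 and 1.73, and Fos 1.23 and 1.91. Jun gave 0.98 and 1.38. Fosl1 went opposite ways, at 4.95 in wild-type and 0.65 in mfn2-/- libraries. With replicates 1 and 2 against 3 and 4 as a term, added after seeing the data, 1440 of all 11754 genes were called, 615 higher and 825 lower. Among them were 6 members: Fosl1, Fosl2, Mafk, Maff and Fosb higher and Fos lower. With each of these replicate pairs averaged into 1 value, also added after seeing the data, 553 genes were called and Fosl1 alone of the members. The limma adjusted p was then 0.140 for Fosl2, 0.149 for Mafk, 0.338 for Maff, 0.519 for Fosb and 0.390 for Fos.

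**Figure D4:**
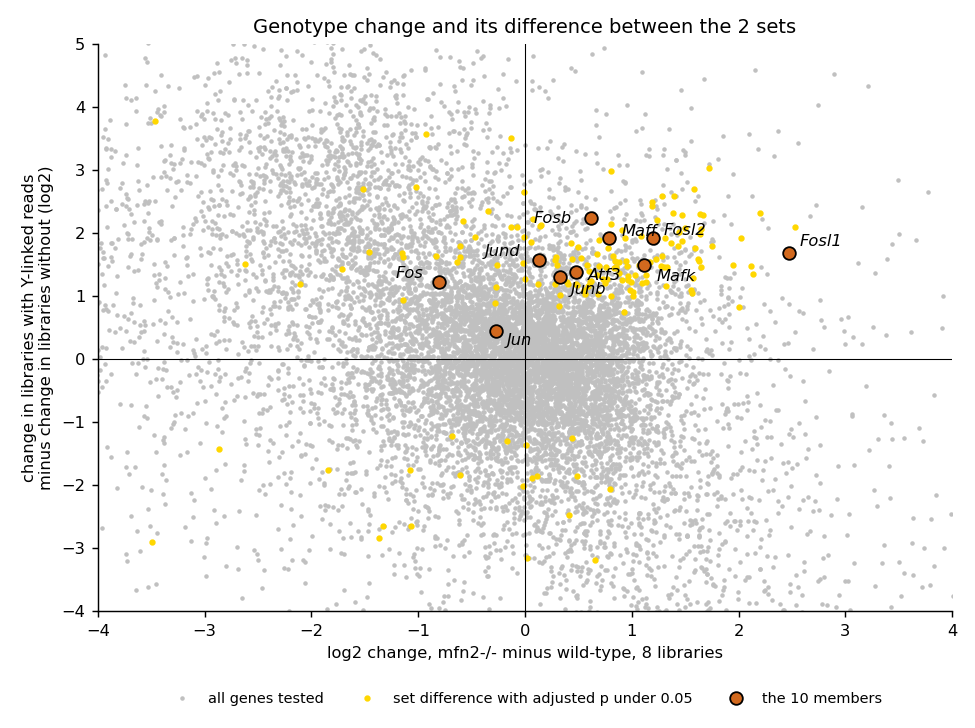
For each gene tested, the log2 change between genotypes (horizontal) against the difference of that change between libraries with and without Y-linked reads (vertical), with members in orange and genes whose set difference had an adjusted p under 0.05 in yellow; genes beyond the axes are not drawn. All 10 members lie above 0 on the vertical axis, from 0.45 for Jun to 2.24 for Fosb.

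Genes around the members were counted from lists of bZIP partners, regulators and targets. Of 35 other bZIP factors tested, 8 were higher and 1 was lower in mfn2-/- ASCs, with a median log2 change of 0.53. The one that fell was Creb3l1, a membrane-bound factor of collagen-secreting cells, at 357 ± 57.0 in wild-type and 34.5 ± 12.1 in mfn2-/- libraries (log2 change -3.39, limma adjusted p 0.000162), beside the fibroadipogenic markers given above. Of the 5 cap'n'collar and Bach partners of the small Mafs tested, 2 were called. Nfe2l2, which encodes Nrf2, rose from 331 ± 86.0 to 878 ± 85.2 (1.44, limma adjusted p 0.00132), and its competitor Bach1 from 823 ± 254 to 2158 ± 584 (1.40, 0.00417). The partners that were not called measured -0.06 for Nfe2l1 (0.868), -2.27 for Nfe2l3 (0.372) and 0.43 for Bach2 (0.633), the last pair named after their values were seen. Nfe2l3 was at 54.6, 27.0, 0 and 0 in wild-type replicates 1 to 4 and at most 0.737 in mfn2-/- libraries. Its value therefore depends on the added 1. Nfil3, a circadian repressor, changed by 1.58 (0.00199), Atf4, the factor of the integrated stress response, by 1.08 (0.00230), and Cebpb by 1.14 (0.00267). Atf5 (-0.30) and Tef (0.15) were abundant genes of the list that were not called.

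Of 41 kinases, phosphatases and serum response factor cofactors upstream of AP-1, 3 were called by limma, all higher, with a median log2 change of 0.15 over the list. By limma 0 were called lower (2 at an unadjusted p under 0.05), by edgeR 0 and by DESeq2 1. They were Dusp16 (1.23, limma adjusted p 0.0135) and Dusp8 (1.03, 0.0378), phosphatases that act on JNK and p38, and Map3k1 (1.28, 0.0200), a kinase at the head of the JNK cascade. Dusp1, an immediate early phosphatase of the same kinases, measured 2629, 2536, 1782 and 2106 in wild-type and 2347, 2121, 1010 and 924 in mfn2-/- libraries and was not called (-0.61, limma adjusted p 0.223). Elk4 (0.51) and Rps6ka3 (0.71) were not called either. The table holds transcripts and no measure of kinase activity.

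Of 20 genes known as AP-1 targets, 5 were higher and 2 lower. Plaur, the urokinase receptor, rose from 100 ± 68.9 to 646 ± 305 (log2 change 2.80, limma adjusted p 0.00112). The metallothioneins Mt2 (2.09, 0.000981) and Mt1 (2.42, 0.00783) and the cell cycle inhibitor Cdkn1a (1.74, 0.00920) were higher as well. Ptgs2, which encodes cyclooxygenase 2, measured 719, 671, 482 and 414 in wild-type and 15.3, 15.0, 18.4 and 0 in mfn2-/- libraries, a log2 change of -6.05 that depends on the added 1 in the library listed at 0 (limma adjusted p 0.000603). Mmp14, a membrane matrix metalloproteinase, fell by 0.90 (0.0325). Plau (-0.44) and Vegfa (0.27) were not called. Of 9 genes with Maf recognition elements, 1 was called, Txnrd1, a thioredoxin reductase, at 622 ± 305 and 2138 ± 286 (1.90, limma adjusted p 0.00124). The other tested genes of that list named by abundance were Srxn1 (0.91), Fth1 (0.77) and Ftl1 (0.29), and 8 of the 9 had a positive value.

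Other early response and heat shock genes, 31 in all, had 8 higher and 2 lower, and their set differences resembled those of the members. The interaction was called for 16 of 31, and 15 of these had the larger change where Y-linked reads were present. In that direction it was called for 1.21% of all genes tested and for 17.3% of the 653 genes with a mean of at least 1000. Most genes of the list had such a mean, so the second share is the nearer background. The list's median change was 1.07 among libraries holding Y-linked reads and 0.00 among those lacking them. Klf6 (0.94, limma adjusted p 0.00191), Btg1 (1.13, 0.00881), Hspb1 (1.13, 0.0139) and Ier5 (1.47, 0.0141) were higher in mfn2-/- ASCs. Cyr61 fell by 1.17 (0.000551) and Ctgf by 1.85 (0.00230), both matricellular genes that respond to YAP and serum response factor. Egr1, a zinc finger factor induced alongside Fos, gave 27520, 29000, 20920 and 22340 in wild-type and 45070, 39160, 16820 and 12150 in mfn2-/- libraries, the split between replicates 1 and 2 and replicates 3 and 4 seen for Fos. Its change over all libraries was -0.01 (limma adjusted p 0.989), with a set difference of 1.94 (limma adjusted p 0.00163). Hspa8 (0.55) and Hspa1b (0.96) were not called, and reads of Hspa1b may be shared with its near-identical neighbour Hspa1a.

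**Figure D5:**
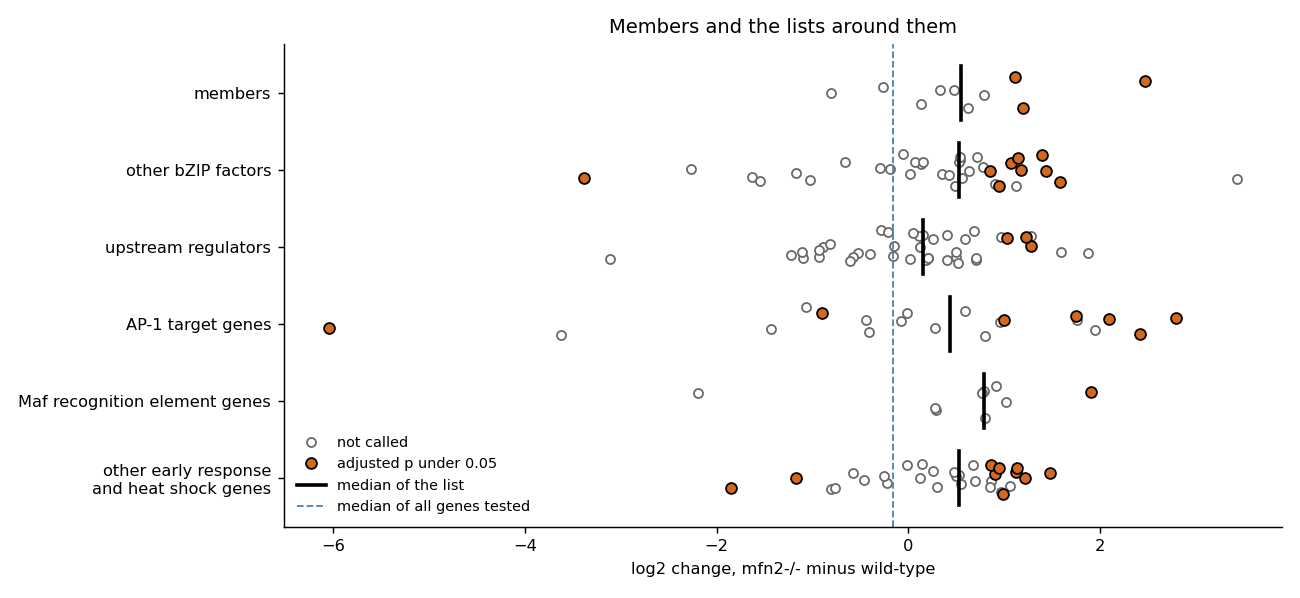
Log2 change, mfn2-/- minus wild-type, of each tested gene of the members and of 5 lists, filled where the limma adjusted p was under 0.05, with the list median as a bar and the median of all genes tested (-0.16) as a dashed line. List medians run from 0.15 for upstream regulators to 0.79 for Maf recognition element genes.

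For Fos, Fosl1 and Jun the genes with the most similar profile were sought by the root mean square difference of centred log2 values over the 8 libraries. For Fos, whose own SD over the libraries was 0.54 on the log2 scale, they included Prkcq (0.16) and Ier2 (0.16), the second an immediate early gene at 679 ± 134 in wild-type and 394 ± 109 normalized reads in mfn2-/- libraries. For Fosl1, with an SD of 1.53, they were Mt1 (0.37), A130040M12Rik (0.45) and Asb4 (0.48), each higher in mfn2-/- ASCs at limma adjusted p 0.00783, 0.00106 and 0.00578. For Jun, with an SD of 0.25, they were Zhx3 (0.07), Itih5 (0.10) and Notch2 (0.11), with limma adjusted p of 0.309 to 0.571. Genes named here were picked for likeness over the same 8 libraries. Their adjusted p therefore largely follows from that choice and is no separate result.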

How the data were processed

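Total RNA of sorted ASCs was sequenced from stranded low-input libraries, 4 wild-type and 4 mfn2-/-, grouped and numbered by their titles. Per the submitters' processing notes the tools were Trim Galore, HISAT2, featureCounts and DESeq2 and the build mm9. Their versions, the annotation and the strand setting are not given in the sources used here. The authors deposited a signal per gene, read counts divided by a size factor of each library, in 1 table of 18877 symbols, of which 24 had turned into dates. All values (100%, tolerance 0.01) were whole multiples of 1 step per library, worth 0.534 to 2.27 normalized reads, so whole reads were recovered. Total reads per library ran from 1880464 (wild-type replicate 1) to 7508215, with 2269009 in mfn2-/- replicate 4, so weak genes are least precise in those 2. Reads carry no molecular identifiers here.

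The 11754 genes with a mean of at least 10 were tested with limma 3.58.1 (R 4.3.3, intensity trend) on log2(value + 1), two-sided, with Benjamini-Hochberg adjustment over all of them, called under 0.05. On recovered reads edgeR 4.0.16 (quasi-likelihood) called 1158 genes and DESeq2 1.42.0 called 1738, beside 1217 by limma. Interaction terms used the same test. Mfn2 alone had an exact permutation test, over 70 arrangements. Positions and lengths are those of GENCODE M21 (GRCm38), promoters those of RefSeq, and none was converted between builds. Tests were checked on simulated counts, and Python 3.11.15 drew the plots.

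Members, lists and tests were chosen with earlier results of these data known. The text names all members, Mfn2, up to 6 called genes of each other list by adjusted p and up to 3 abundant ones not called, and the 3 nearest profiles of Fos, Fosl1 and Jun, except that some genes the rule names are not reported here. Alternatives covered pseudocounts of 0.1 and 10, filters, scalings, a replicate block, no trend, library weights, a term for Y-linked reads, count-based tests and each library left out. A term for replicates 1 and 2 against 3 and 4, averages of those pairs, removal of matrix genes, and the interaction without both shallowest libraries were added after seeing the data.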

Additional observations from a re-analysis of the deposited data

Results flagged for a closer look

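The change between genotypes differed between libraries with and without Y-linked reads for 8 members, by limma's interaction term adjusted over all genes tested, where 1.47% of all genes and 17.3% of genes with a mean of at least 1000 normalized reads (in the same direction) were called. The count was 4 without wild-type replicate 1, 2 or 4 or without mfn2-/- replicate 1. The difference, larger with Y-linked reads in each case, was 1.23 on the log2 scale for Fos, 2.24 for Fosb, 1.92 for Fosl2, 1.30 for Junb, 1.57 for Jund, 1.38 for Atf3, 1.93 for Maff and 1.49 for Mafk. The presence of Y-linked reads and the split of replicates 1 and 2 from 3 and 4 give the same term and cannot be told apart. A separate check on each group of 4 values for a library far from the others, over 22 groups of the members and Mfn2, found 0. Chance gives about 1 in 20 for independent values. Groups whose replicates 1 and 2 lie well apart from 3 and 4 cannot be flagged this way, so no conclusion is drawn from the 0.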

How the results depend on the processing

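Fosl1, Fosl2 and Mafk were called higher, and no other member was, under both pseudocounts, both filters, 4 scalings and edgeR. No intensity trend left 0 members called by limma (4 at an unadjusted p under 0.05), 633 genes in all, and 3 other bZIP factors, 0 upstream regulators, 3 AP-1 targets and 2 early response or heat shock genes. Library weights gave 8 members, 3037 genes, and 18, 17, 5 (Maf recognition element genes) and 20 genes of the lists. Averaging replicates 1 and 2 and replicates 3 and 4 gave 1 member, 553 genes, 4 other bZIP factors, 0 upstream regulators and 1 early response or heat shock gene. A term for these pairs gave 6 members, 1440 genes and 7 upstream regulators. Upstream regulators numbered 5 with a pseudocount of 10 and 8 without both shallowest libraries. Maf recognition element genes numbered 2 with a pseudocount of 10, equal totals, upper-quartile, quantile or TMM scaling, the Y-linked term, DESeq2, the pairs term and without both shallowest libraries. Leaving out single libraries gave 670 to 1307 genes (670 without wild-type replicate 3, 749 without wild-type replicate 4), 1 to 3 members (1 without wild-type replicate 3, wild-type replicate 4 or mfn2-/- replicate 2, 2 without mfn2-/- replicate 1), 4 to 8 members for the set difference, and 6 to 10, 1 to 6, 5 to 6, 1 to 2 and 4 to 11 genes of the lists in the order of the report. Early response and heat shock genes fell to 4 without wild-type replicate 3, 5 without wild-type replicate 4 and 6 without mfn2-/- replicate 1, and upstream regulators to 1 without any of these 3 or were 6 without wild-type replicate 1. Jund turned to -0.01 without wild-type replicate 3 and -0.048 without wild-type replicate 4, and ran up to 0.33 without mfn2-/- replicate 3. With the replicate number as a block 1043 genes were called, with 5 members among them, Maff higher and Fos lower besides the 3. Over all genes tested, same-numbered libraries did not deviate together (correlations -0.11 to 0.04), so the numbers were not taken to pair them. For 8 members, however, replicates 1 and 2 lay above 3 and 4 in both groups. Scaling moved the median change of all genes from -0.16 to 0.13 under quantile normalization. Where a count moved, the cause was not tested.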
